A study of Mus musculus with 27 samples.

Results

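Zone 1 and zone 2 of the maternal liver lobule were compared at day 8 post coitum (dpc8), the earlier of the pregnant stages in this series, to see which transcripts separate the rim of the lobule from its middle. Genes were taken from the FPKM table (fragment counts scaled by transcript length and library size, so levels are per length) where at least 3 of the 6 dpc8 libraries of these zones held an FPKM of 1 or more. This rule kept 11575 of 21823 genes (53.04%). At its edge, 510 genes reached an FPKM of 1 in exactly 3 libraries and were kept, and 625 reached it in exactly 2 and were not. A further 5842 genes were listed at 0 in all 6 libraries.

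The mice were wild-type females labelled C57BL/6 (the C57BL/6N line in the methods), pregnant at dpc8, with 3 libraries from zone 1 and 3 from zone 2. Each library came from 2 mm2 of frozen section cut out by laser microdissection, which collects a chosen area under the microscope together with every cell type inside it. The other groups used here were dpc8 zone 3 and the same zones of non-pregnant (NP) and dpc16 mice, also wild-type females, with 3 libraries each and 27 libraries in 9 groups over the whole series. The labels do not say whether replicates came from separate animals, and the methods describe independent experiments in different mice without tying libraries to animals, so p-values measure the spread between these libraries.

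Hepatocytes divide their work by their distance from the blood supply, which reaches a lobule at its rim and drains at its centre. By convention zone 1 lies around the portal vein, zone 3 around the central vein, and zone 2 between them. Periportal hepatocytes are known for urea synthesis, gluconeogenesis and amino acid breakdown. Pericentral hepatocytes are known for glutamine synthesis and drug oxidation by cytochrome P450 enzymes, and Wnt signals from the central vein keep part of this pattern.

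The sum of FPKM lay between 510110 and 650820 in the 6 libraries, which held 10864 to 11832 genes with an FPKM of at least 1. Steps in the low values gave estimated depths of 11.34 to 26.86 M (mega) reads. Pairs of libraries had correlations of log2 values between 0.807 and 0.968. A pair stood apart, dpc8 zone 1 replicate 1 and dpc8 zone 2 replicate 2. All mice are labelled female, yet 4 Y-linked genes summed to 20.5 and 16.1 FPKM in these libraries and to at most 2.81 in the other 4. Their mean log2(FPKM + 1) over 19 connective tissue and smooth muscle genes was 5.46 and 4.97, against 1.28 to 3.52 in the others. Leaving out this pair was therefore added as an alternative after the data were seen.

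Few genes passed the threshold between the zones. With limma and Benjamini-Hochberg adjustment, 15 of 11575 genes (0.13%) had an adjusted p under 0.05, of which 13 (0.112%) were lower in zone 1 and 2 (0.0173%) were higher. Under an unadjusted threshold of 0.05 there were 373 genes. The calls rest on a spread estimated from all 27 libraries. A fit of the 6 libraries alone called 0 genes by limma, with 352 at an unadjusted p under 0.05. Without the pair of libraries that stood apart, 13 genes passed, 2 higher and 11 lower, and 12 of them were among the 15. Rdh9 (log2 fold change -3.15), Cyp3a41b (-3.71) and Kcne3 (1.95) no longer passed. Leaving out zone 1 replicate 2, zone 1 replicate 3 or zone 2 replicate 1, one at a time, left 7, 8 and 7 genes. In 848 genes (7.33%) the 3 values of one zone all lay beyond the 3 values of the other, with 495 (4.28%) higher and 353 (3.05%) lower in zone 1. Of the genes without overlap, 58 reached an FPKM of 1 in all libraries of one zone and in none of the other, so they entered the test through that zone alone. Over all genes 53.2% were fitted above 0 and 46.8% below, 3.22% had an unadjusted p under 0.05, the median fitted log2 fold change was 0.02, and the median standard error of a gene was 0.36. Fold changes are zone 1 minus zone 2 on log2(FPKM + 1), a scale that understates the change of weakly expressed genes.

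**Figure D1:**
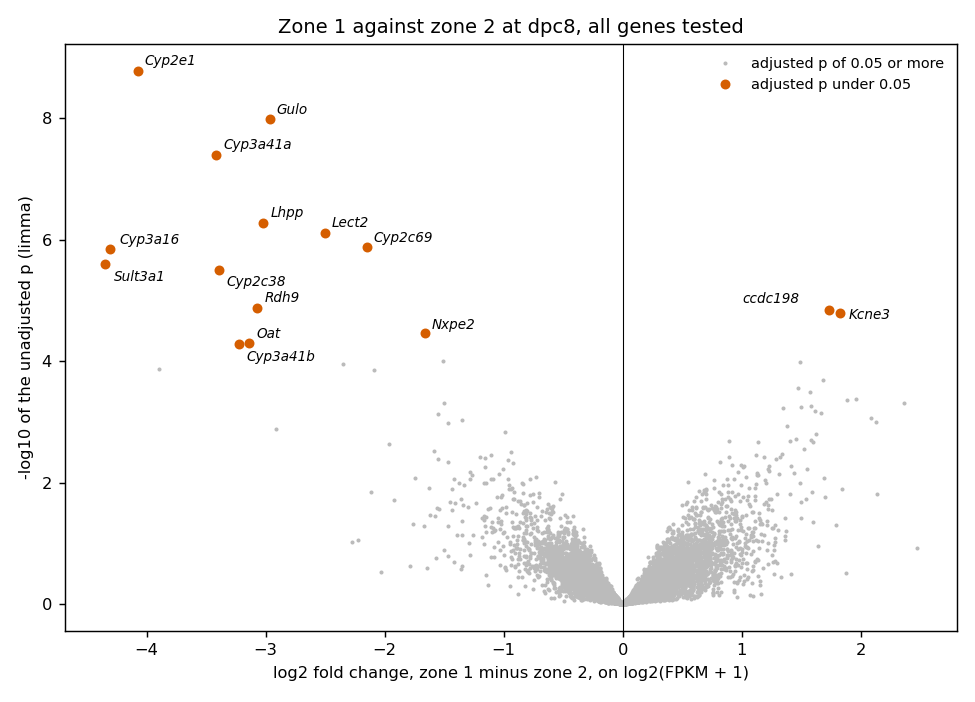
Fitted log2 fold change of zone 1 minus zone 2 (x axis) against -log10 of the unadjusted limma p (y axis) for the 11575 genes tested at dpc8, 1 point per gene. The 15 named points have an adjusted p under 0.05, and 13 of them lie on the left, lower in zone 1.

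Of the 13 genes lower in zone 1, 6 encode P450 enzymes. Cyp2e1 (ENSMUSG00000025479.9, mm10 chromosome 7, 140763739 to 140774987), which oxidizes ethanol and paracetamol, had FPKM values of 216.9, 185.9 and 74.9 in zone 1 and of 3549, 1925 and 2177 in zone 2. The lowest zone 2 library was thus far above the highest zone 1 library. The means were 159 ± 74.6 and 2550 ± 874 FPKM (SD, n = 3 each), a 16-fold ratio, and the limma log2 fold change was -4.08 ± 0.41 (SE) with an adjusted p of 1.90e-05. Zone 3 libraries were at 10617, 9487 and 7751 FPKM. In bulk samples such as these, fewer cells of a type and less RNA per cell cannot be told apart.

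3 close relatives of the Cyp3a family, whose products hydroxylate steroids and drugs, were lower in zone 1. Cyp3a16 (ENSMUSG00000038656.5, chromosome 5, 145436309 to 145469723) was at 21.1, 14.0 and 4.70 FPKM in zone 1 and at 316, 174 and 263 in zone 2 (log2 fold change -4.31 ± 0.66, adjusted p by limma 0.00238). Cyp3a41a (ENSMUSG00000075551.4, chromosome 5, 145694049 to 145720136) was at 5.28, 3.71 and 1.17 FPKM in zone 1 and at 49.5, 31.5 and 46.6 in zone 2 (log2 fold change -3.42 ± 0.42, adjusted p by limma 1.54e-04). Zone 3 held 70.0 ± 8.26 FPKM of this gene (SD, n = 3), 1.65 times the zone 2 mean, and this step did not pass (adjusted p by limma 0.96). Cyp3a41b (chromosome 5, 145558664 to 145584730) was at 1.46, 1.01 and 0.257 FPKM in zone 1 and at 29.8, 10.8 and 13 in zone 2 (log2 fold change -3.23 ± 0.64, adjusted p by limma 0.0408). The zones did not overlap in any of the 3. The genes are near copies of each other and, per the methods, only reads with a single mapped position were kept, so reads that fit several copies would be missing from these values and the separate levels are uncertain.

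Of the Cyp2c family, also drug and fatty acid oxidases, Cyp2c69 and Cyp2c38 passed. Cyp2c69 (ENSMUSG00000092008.2, chromosome 19, 39842814 to 39886799) was at 98.3, 97.5 and 156 FPKM in zone 1 and at 626, 282 and 759 in zone 2. The fitted log2 fold change was -2.15 ± 0.33 with an adjusted p by limma of 0.00238. Cyp2c38 (ENSMUSG00000032808.2, chromosome 19, 39389556 to 39463075) was at 2.23, 0.370 and 0.294 FPKM in zone 1 and at 44.5, 8.17 and 14.9 in zone 2, a log2 fold change of -3.39 ± 0.55 (adjusted p by limma 0.00404). The zones did not overlap in either gene, although zone 2 replicate 1 was far above the other zone 2 libraries in Cyp2c38. Similar genes lie beside both of them, so read assignment is uncertain here too.

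The other 7 genes lower in zone 1 are Sult3a1, Gulo, Lect2, Oat, Lhpp, Rdh9 and Nxpe2. Sult3a1 (ENSMUSG00000069668.4, chromosome 10, 33857721 to 33879532), a sulfotransferase with close copies in the genome, had the largest fitted fold change of the 15 genes, with 3.32, 0.742 and 1.29 FPKM in zone 1 and 112, 19.8 and 60.8 in zone 2. It came to -4.35 ± 0.69 with an adjusted p by limma of 0.00367. Gulo (ENSMUSG00000034450.8, chromosome 14, 65986786 to 66009207), the enzyme of the last step of vitamin C synthesis, was at 12.2, 12 and 16.1 FPKM in zone 1 and at 133, 71.4 and 145 in zone 2. The 3 libraries of zone 1 were close to each other, and the fitted change was -2.97 ± 0.33 on the log2 scale with an adjusted p by limma of 5.94e-05. Lect2 (ENSMUSG00000021539.9, chromosome 13, 56542464 to 56548502), a protein that hepatocytes secrete into plasma and a known Wnt target, was at 6.89, 9.87 and 22.0 FPKM in zone 1 and at 73.1, 45.9 and 103 in zone 2. Here the log2 fold change was -2.51 ± 0.37 with an adjusted p by limma of 0.00178.

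Oat, ornithine aminotransferase (ENSMUSG00000030934.9, chromosome 7, 132557478 to 132576398), was at 35.8, 11.1 and 7.94 FPKM in zone 1 and at 209, 122 and 105 in zone 2. This was a log2 fold change of -3.14 ± 0.62 (adjusted p by limma 0.0408), and zone 3 stood 11.3 times above zone 2 at 1635 ± 191 FPKM (SD, n = 3). Lhpp, a phosphatase (ENSMUSG00000030946.13, chromosome 7, 132610638 to 132706420), was at 1.22, 1.51 and 1.06 FPKM in zone 1 and at 28.5, 11.9 and 15.2 in zone 2, with a log2 fold change of -3.02 ± 0.43 (adjusted p by limma 0.00151). Both genes thus stood far lower in zone 1 in every library. Rdh9, of the retinol dehydrogenase family (ENSMUSG00000056148.8, chromosome 10, 127776386 to 127792697), was at 0.919, 0.933 and 0.379 FPKM in zone 1 and at 11.4, 13.4 and 16.1 in zone 2, with a log2 fold change of -3.07 ± 0.55 (adjusted p by limma 0.0153), and it entered the test through zone 2 alone. Nxpe2 (ENSMUSG00000032028.15, chromosome 9, 48318006 to 48353454) was at 1.49, 0.911 and 0.969 FPKM in zone 1 and at 7.67, 3.12 and 7.33 in zone 2, with a log2 fold change of -1.66 ± 0.32 (adjusted p by limma 0.0304). Zone 1 lay below zone 2 in every library of these genes too. Oat and Lhpp lie within the annotated span of Fgfr2, Rdh9 overlaps Rdh16f1 and Nxpe2 overlaps Nxpe4, so reads may be shared, and whether the authors counted by strand is not given in the sources used here.

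**Figure D2:**
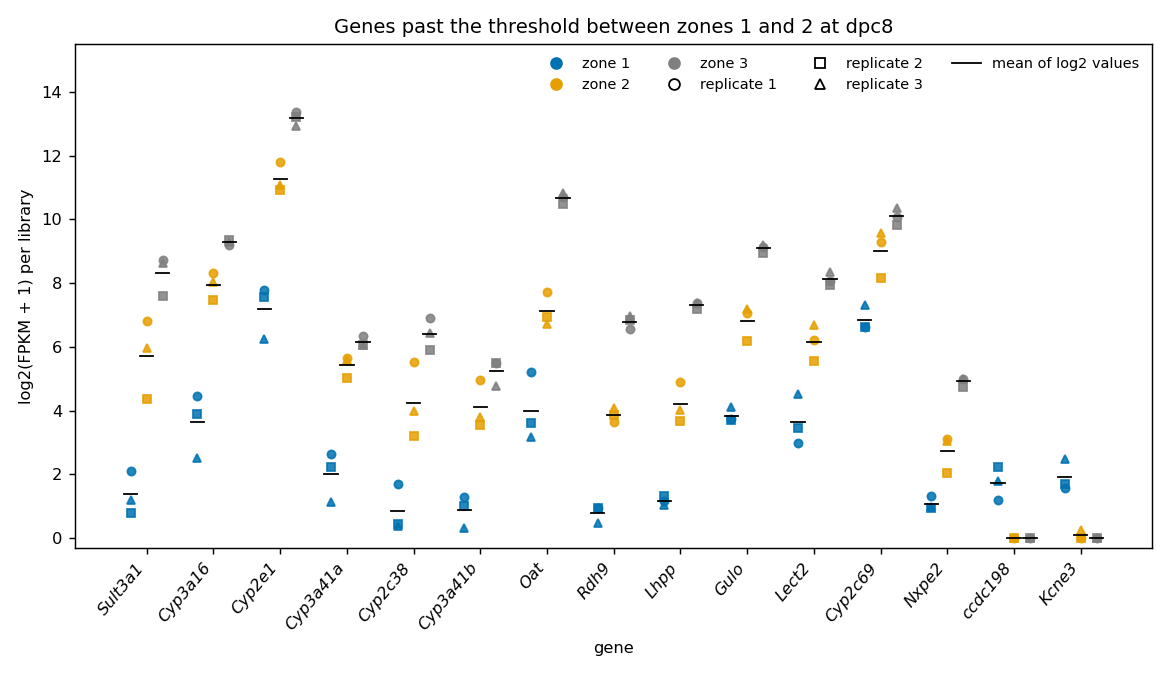
Level of the 15 genes past the threshold as log2(FPKM + 1) (y axis) in each of the 9 dpc8 libraries, coloured by zone, with replicate number as the marker shape and the mean of the 3 log2 values as a bar. Zone 1 lies below zone 2 without overlap in 13 genes, and ccdc198 and Kcne3 lie near 0 in zones 2 and 3.

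Calls differed in how far they rested on single libraries. Cyp2e1, Gulo, Cyp3a41a, Cyp3a16, Lhpp, Lect2 and Cyp2c69, which is 7 of the 15 genes, passed whichever of the 6 libraries was left out. Sult3a1 did not pass without zone 1 replicate 2 (log2 fold change -4.06) or zone 2 replicate 1 (-3.80). Cyp2c38 did not pass without those libraries (-3.20 and -2.75) or without zone 1 replicate 3 (-3.16). Nxpe2 passed without zone 1 replicate 1 or zone 2 replicate 2 and not without zone 1 replicates 2 and 3 or zone 2 replicates 1 and 3 (-1.59, -1.61, -1.47 and -1.5, each left out in turn). Oat and Rdh9 passed without zone 1 replicate 1. When each of the others was left out, Oat lay between -3.34 and -2.73 and Rdh9 between -3.18 and -2.91, neither past the threshold. Cyp3a41b passed in 0 of the 6 fits by limma, with fold changes from -3.50 to -2.81.

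Promoters of these genes were searched for the motif of the TCF and LEF factors, which act at the end of the Wnt pathway, because Lect2 is a known target of it. The letters CTTTGAT or CTTTGAA, on either strand, were looked for in the 250 bases before each RefSeq transcript start on GRCm38.p6. They were found in 3 of the 11 genes lower in zone 1 that had a window (27.3%), against 607 of 9190 tested genes (6.61%) and 2457 of 32851 windows (7.48%). Lect2, which prompted the search, is among the 3, so the first share is not independent of the choice of motif. A match describes these letters and is not evidence of binding. The 3 stretches are shown on the strand of the gene, with the match in capitals, for Cyp2e1 (chr7:140763634-140763733, plus strand), Lect2 (chr13:56548539-56548638, minus strand, where the match is in reverse orientation) and Sult3a1 (chr10:33857565-33857664, plus strand).
Cyp2e1: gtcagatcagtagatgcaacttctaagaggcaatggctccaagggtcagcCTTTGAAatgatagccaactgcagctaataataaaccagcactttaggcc
Lect2: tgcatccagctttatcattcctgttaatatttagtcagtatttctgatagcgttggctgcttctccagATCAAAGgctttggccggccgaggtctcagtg
Sult3a1: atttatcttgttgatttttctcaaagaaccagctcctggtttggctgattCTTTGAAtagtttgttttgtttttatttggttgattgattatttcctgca
Each stretch is 100 bases long, and the matches start 135, 32 and 107 bases before the transcript start. Of the genes higher in zone 1, 0 of 2 held these letters. Gulo and Lhpp had no window in the table.

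Both genes past the threshold and higher in zone 1 were weakly expressed. Kcne3 (ENSMUSG00000035165.14, chromosome 7, 100176502 to 100184869), an accessory subunit of potassium channels, was at 1.96, 2.25 and 4.55 FPKM in zone 1, and in zone 2 it was listed at 0 in 2 libraries and at 0.202 in the third. The fitted log2 fold change was 1.82 ± 0.33 with an adjusted p by limma of 0.0156. The gene ccdc198 (ENSMUSG00000021850.14, chromosome 14, 49219588 to 49245474), which encodes a coiled-coil protein, was at 1.30, 3.66 and 2.46 FPKM in zone 1 and was listed at 0 in the 3 libraries of zone 2 and of zone 3. Here it was 1.74 ± 0.31, a value that depends on the pseudocount, with an adjusted p by limma of 0.0154. Both genes entered the test through their zone 1 values alone. Both passed in 1 of the 6 fits that left out 1 library, the fit without zone 1 replicate 1. When each of the other 5 was left out, Kcne3 lay between 1.54 and 1.93 and ccdc198 between 1.5 and 1.74, and neither passed. Kcne3 overlaps an antisense gene.

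The next genes by p that were higher in zone 1 without overlap did not pass. Sox9, a transcription factor of bile duct cells, was at 4.38, 3.44 and 5.25 FPKM in zone 1 and at 0.594, 1.14 and 0.623 in zone 2 (log2 fold change 1.59 ± 0.39, adjusted p by limma 0.222). Ptgds, a prostaglandin D synthase, was at 10.4, 33.2 and 7.47 FPKM in zone 1 and at 1.68, 1.90 and 2.11 in zone 2 (2.36 ± 0.58, adjusted p by limma 0.208). Eci3, an enoyl-CoA isomerase of fatty acid breakdown, was at 40.1, 47.7 and 64.5 FPKM in zone 1 and at 21.6, 11.7 and 19.2 in zone 2 (1.5 ± 0.37, adjusted p by limma 0.224). Zone 1 was above zone 2 in every library of these 3 genes, and zone 3 was lower still in Eci3, at 1.01 ± 0.662 FPKM (SD, n = 3). Plet1, Plcxd1, Plekhh1, Scara3, Tstd1 and Cep295 also did not overlap, with log2 fold changes of 1.5, 1.69, 1.48, 1.57, 1.89 and 1.35 and adjusted p-values by limma between 0.0705 and 0.224. Plet1, Plcxd1 and Plekhh1 entered the test through zone 1 alone. A predicted gene completes the list of 10. Scara3, a scavenger receptor, was at 2.48, 3.04 and 5.35 FPKM in zone 1 and at 0.0444, 1.94 and 0.101 in zone 2, where the middle value is that of the library that stood apart. It passed without that library, zone 2 replicate 2, with a log2 fold change of 2.06. Plet1 passed without zone 1 replicate 1, with a log2 fold change of 1.71.

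The marker genes that the study names for the lobule did not pass between zones 1 and 2. Glul, glutamine synthetase, was at 74.4, 32.0 and 25.7 FPKM in zone 1 and at 141, 64.6 and 42.2 in zone 2, with overlap and a log2 fold change of -0.87 ± 0.43. This value was -0.57 without zone 1 replicate 3, -0.39 without zone 2 replicate 1, -1.32 without zone 1 replicate 1 and -1.40 without the pair that stood apart. In zone 3 the mean was 2454 ± 358 FPKM (SD, n = 3), and zone 2 minus zone 3, which shares the zone 2 libraries, gave a log2 fold change of -5.04 with an adjusted p by limma of 7.49e-07. That contrast called 36 genes (0.311%), 17 higher (0.147%) and 19 lower (0.164%) in zone 2. Cyp1a2, a P450 enzyme that metabolizes caffeine, was at 33.8, 170 and 263 FPKM in zone 1 and at 198, 305 and 507 in zone 2 (-1.43 ± 0.53), with overlap, and zone 1 replicate 1, one of the pair that stood apart, was the lowest. Its log2 fold change was -0.58 without the pair and -0.56 without zone 1 replicate 1 alone. Tbx3, a transcription factor of pericentral hepatocytes, was at 3.46, 3.83 and 1.33 FPKM in zone 1 and at 7.49, 11.6 and 10.7 in zone 2, without overlap (-1.55 ± 0.48, adjusted p by limma 0.778). Axin2, a feedback inhibitor of Wnt signalling, was at 0.0362, 0.970 and 1.5 FPKM in zone 1 and at 6.72, 1.04 and 2.76 in zone 2 (-1.18 ± 0.53), and its log2 fold change was -0.69 without zone 2 replicate 1 and -1.28 without the pair. Cyp17a1, a steroid hydroxylase, is a portal vein marker in the study's text and a portal vein and parenchymal marker in a figure legend. It was at 123, 195 and 263 FPKM in zone 1 and at 73.9, 63.4 and 128 in zone 2, also with overlap (1.13 ± 0.63).

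Lists of zone markers describe the same comparison more broadly. Their counts and medians are descriptions. All 20 tested members of the pericentral list had fitted values below 0 (46.8% of all genes), with a median log2 fold change of -1.53 against 0.02 over all genes. Of these, 4 (Cyp2e1, Gulo, Lhpp and Oat) passed, where 0.112% of all genes were called lower, 17 had an unadjusted p under 0.05 (3.22% of all genes), and 11 lay below zone 2 without overlap, where 3.05% of all genes did. Their FPKM summed to 1395 to 5622 in the zone 1 libraries and to 6507 to 11979 in the zone 2 libraries. Rgn, which acts one step before Gulo in vitamin C synthesis, was at 246, 225 and 279 FPKM in zone 1 and at 846, 463 and 911 in zone 2 (-1.51 ± 0.32, adjusted p by limma 0.0705). Cyp2c29, at the top of the list by level, was at 240, 1634 and 3296 FPKM in zone 1 and at 474, 1255 and 3825 in zone 2. Its log2 fold change was -0.27 ± 0.80, a sign that depends on the low value of zone 1 replicate 1. Without the pair that stood apart, 1 of the 20 members was fitted above 0.

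All 14 periportal markers had fitted values above 0 (53.2% of all genes), with a median log2 fold change of 0.86, yet 0 passed by limma. At an unadjusted p under 0.05 (3.22% of all genes) there were 4, namely Cyp2f2, Sds, Etnppl and Aldh1b1, the last 3 named after their values were seen. In 6 of the 14 the zones did not overlap, against 4.28% of all genes with zone 1 higher. Cyp2f2, a P450 enzyme of the portal side, was at 565, 1183 and 1296 FPKM in zone 1 and at 382, 423 and 526 in zone 2 (1.11 ± 0.52). Ass1, of the urea cycle, and Pck1, of gluconeogenesis, overlapped between the zones, with log2 fold changes of 0.40 ± 0.45 and 0.73 ± 0.88. Without the pair of libraries that stood apart, the median of the periportal list was 1.12 and that of the pericentral list -1.32. The summed pericentral levels thus separated the zones in the order of their labels. The periportal sums were 4766, 7064 and 7295 FPKM in zone 1 and 2821 to 5188 in zone 2. They overlapped only between zone 1 replicate 1, a library of that pair, and zone 2 replicate 1, which is not of the pair.

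**Figure D3:**
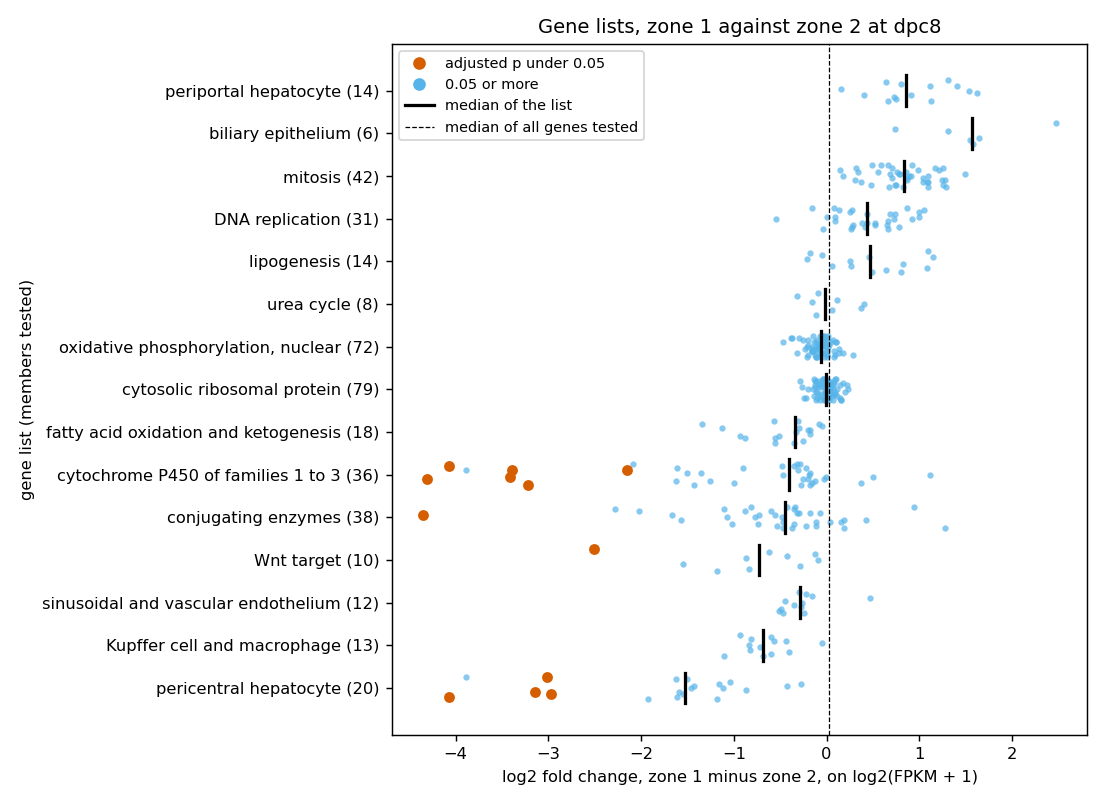
Fitted log2 fold change of zone 1 minus zone 2 at dpc8 (x axis) for the members tested of 15 gene lists (y axis, number tested in brackets), 1 point per gene, with the median of each list as a bar and that of all genes (0.02) as a dashed line. Pericentral markers and P450 genes reach below -4, and members of the mitosis list all lie above 0.

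Among 36 P450 genes of families 1 to 3, 6 passed, all lower in zone 1 (0.112% of all genes), and 33 had fitted values below 0 (46.8% of all genes), with a median of -0.41. The zones did not overlap in 11 with zone 1 lower (3.05% of all genes) and in 1 with zone 1 higher (4.28%). The 6 were Cyp2e1, Cyp3a16, Cyp3a41a, Cyp3a41b, Cyp2c38 and Cyp2c69. Cyp2a5, which oxidizes coumarin and nicotine and was singled out after its values were seen, was at 54.8, 40.8 and 28.5 FPKM in zone 1 and at 932, 367 and 656 in zone 2 (log2 fold change -3.89 ± 0.84, adjusted p by limma 0.0793). Abundant members did not all share this pattern. Cyp3a11 was at 383, 1949 and 2235 FPKM in zone 1 and at 577, 1258 and 2310.5 in zone 2, a log2 fold change of 0.00 ± 0.81. This value depends on zone 1 replicate 1, of the pair that stood apart, which was the lowest. The other zone 1 values lay above zone 2 replicates 1 and 2 and below replicate 3. Cyp2a4 was at 833, 736 and 852 FPKM in zone 1 and at 1058, 342 and 659 in zone 2 (0.38 ± 0.50). Without zone 1 replicate 3 the median of the list was -0.93, and without the pair that stood apart it was -0.44, with 10 genes fitted above 0. Of 38 conjugating enzymes 1 passed, Sult3a1, and 31 had fitted values below 0, beside the same shares of all genes (0.112% and 46.8%), with a median of -0.45 (-0.17 without the pair). The abundant Gstm1, a glutathione transferase, had a log2 fold change of -0.37, and Ugt1a1, which conjugates bilirubin, of -0.32.

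Wnt target genes had a median of -0.73 over 10 members, all fitted below 0 (46.8% of all genes), and 1 passed (Lect2, beside 0.112% of all genes called lower). Ccnd1, a G1 cyclin, was at 78.3, 39.5 and 52.2 FPKM in zone 1 and at 61.6, 95.0 and 35.6 in zone 2, with overlap (-0.12 ± 0.43). Notum, a secreted Wnt inhibitor, was at 2.26, 11 and 11.5 FPKM in zone 1 and at 19.1, 10.1 and 11.5 in zone 2 (-0.84 ± 0.47), so only replicate 1 of the zones lay far apart. Without zone 1 replicate 1 the median of this list was -0.40, and without the pair it was -0.37.

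Most other hepatocyte functions had medians nearer to 0. In the urea cycle 4 of 8 genes were fitted above 0 and the median was -0.02, with Cps1, its entry enzyme, at 764, 753 and 1157 FPKM in zone 1 and at 1342, 536 and 1110.1 in zone 2. Among 32 genes of amino acid breakdown Oat alone passed (0.112% of all genes were called lower), and the median was -0.06. All 18 tested genes of fatty acid oxidation and ketogenesis were fitted below 0 (46.8% of all genes), with a median of -0.34 and 0 past the threshold by limma or at an unadjusted p under 0.05. Cyp4a14, a fatty acid omega-hydroxylase and a target of PPAR alpha, was at 200, 294 and 178 FPKM in zone 1 and at 507, 508 and 428 in zone 2, but its spread over the series was wide (-1.13 ± 1.59). Bile acid genes had a median of -0.30 over 17 members, with 0 past the threshold by limma and 5 at an unadjusted p under 0.05 (3.22% of all genes), and without the pair the median was -0.08. Slco1b2, a hepatocyte uptake carrier, was at 119, 214 and 206 FPKM in zone 1 and at 471, 288 and 431 in zone 2 (-1.16 ± 0.38, adjusted p by limma 0.888). Fasn, fatty acid synthase, was at 132, 201 and 258 FPKM in zone 1 and at 97.5, 46.3 and 157 in zone 2 (1.08 ± 0.72), in a lipogenesis list with a median of 0.47 over 14 members and 0 past either threshold by limma, and without the pair that median was 0.30. The mean log2 level of the lipogenesis list was 6.27, 6.51 and 6.98 in zone 1 and 6.44, 5.25 and 6.64 in zone 2. The low value, in zone 2 replicate 2 of the pair, thus sets much of the difference. Gluconeogenesis and glycogen genes (median 0.09, 16 members), cholesterol genes (-0.09, 20), acute phase genes (-0.05, 20), plasma carriers (-0.15, 22), complement and coagulation (-0.15, 28), iron handling (0.05, 13), growth hormone, prolactin and IGF genes (-0.04, 15), hypoxia genes (0.00, 14), the unfolded protein response (0.06, 15) and immediate early and heat shock genes (0.26, 15) had 0 members past the threshold by limma. Ribosomal protein genes (0.00, 79), nuclear and mitochondrial genes of oxidative phosphorylation (-0.06, 72, and 0.01, 10), G1 cyclins and inhibitors (-0.06, 14) and midlobular markers (-0.72, 4) had 0 as well. Without the pair the medians of the midlobular markers, the acute phase genes and the unfolded protein response were -0.03, -0.46 and -0.19, those of cholesterol and of growth hormone, prolactin and IGF genes -0.21 and -0.17, and those of gluconeogenesis and immediate early genes 0.19 and 0.47. In all lists of these last sentences together, Saa3, C6 and Id1 alone had an unadjusted p under 0.05, and they are named after their values were seen.

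Genes of cell division were compared because the study followed hepatocyte proliferation zone by zone at this stage. All 42 mitosis genes had fitted values above 0 (53.2% of all genes), with a median log2 fold change of 0.84 and 16 without overlap (4.28% of all genes had zone 1 higher without overlap), but 0 passed by limma and 4 had an unadjusted p under 0.05 (3.22% of all genes). Cdk1, the kinase that drives entry into mitosis, was at 38.9, 11.2 and 24 FPKM in zone 1 and at 6.72, 16.3 and 9.38 in zone 2, with overlap (1.05 ± 0.90). Cenpa, the histone of centromeres, was at 32.9, 21.8 and 13.1 FPKM in zone 1 and at 7.58, 13.6 and 8.07 in zone 2 (1.09 ± 0.56). Mad2l1, of the spindle checkpoint, and Ube2c, a ubiquitin-conjugating enzyme of mitotic exit, had log2 fold changes of 1.26 ± 0.86 and 0.67 ± 1.04. Sgo1, which protects centromere cohesion and was singled out after its values were seen, had the lowest p of the list and entered the test through zone 1 alone. It was at 2.80, 2.97 and 1.43 FPKM in zone 1 and at 0.506, 0.561 and 0.0715 in zone 2 (1.29 ± 0.40, adjusted p by limma 0.781). Hmmr, the hyaluronan-mediated motility receptor that the study examined, was at 7.81, 3.26 and 5.86 FPKM in zone 1 and at 2.69, 3.91 and 2.26 in zone 2, with overlap (0.71 ± 0.49).

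The mean log2(FPKM + 1) of the mitosis list was 3.65, 2.38 and 2.76 in the zone 1 libraries and 1.97, 2.52 and 1.81 in the zone 2 libraries. The highest value of each zone was in the library that stood apart by its Y-linked and connective tissue genes. Without this pair the median log2 fold change was 0.73, with 39 of 42 genes fitted above 0. Removing the pair takes the highest library out of both zones. It therefore does not show how far the difference rests on zone 1 replicate 1 alone, at 3.65. Zone 1 replicate 2 (2.38) lay below zone 2 replicate 2 (2.52). DNA replication genes had 28 of 31 members fitted above 0 (53.2% of all genes) and a median of 0.44, and 21 members and a median of 0.27 without the pair. By limma 0 of them passed, also at an unadjusted p under 0.05. The mean log2(FPKM + 1) of this list was 3.34, 2.11 and 2.77 in zone 1 and 2.34, 2.505 and 2.07 in zone 2. The pair again held the highest value of each zone. Removing it therefore does not show how far this difference rests on zone 1 replicate 1 alone, at 3.34. Zone 1 replicate 2 lay below zone 2 replicates 1 and 2. Rrm2, of ribonucleotide reductase, was at 57.7, 13 and 23.7 FPKM in zone 1 and at 12, 18.2 and 9.17 in zone 2 (1.0 ± 0.84). With the mean of the connective tissue genes as a covariate, the mitosis median was 0.62 with 41 genes fitted above 0, and the DNA replication median was 0.27 with 25.

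**Figure D4:**
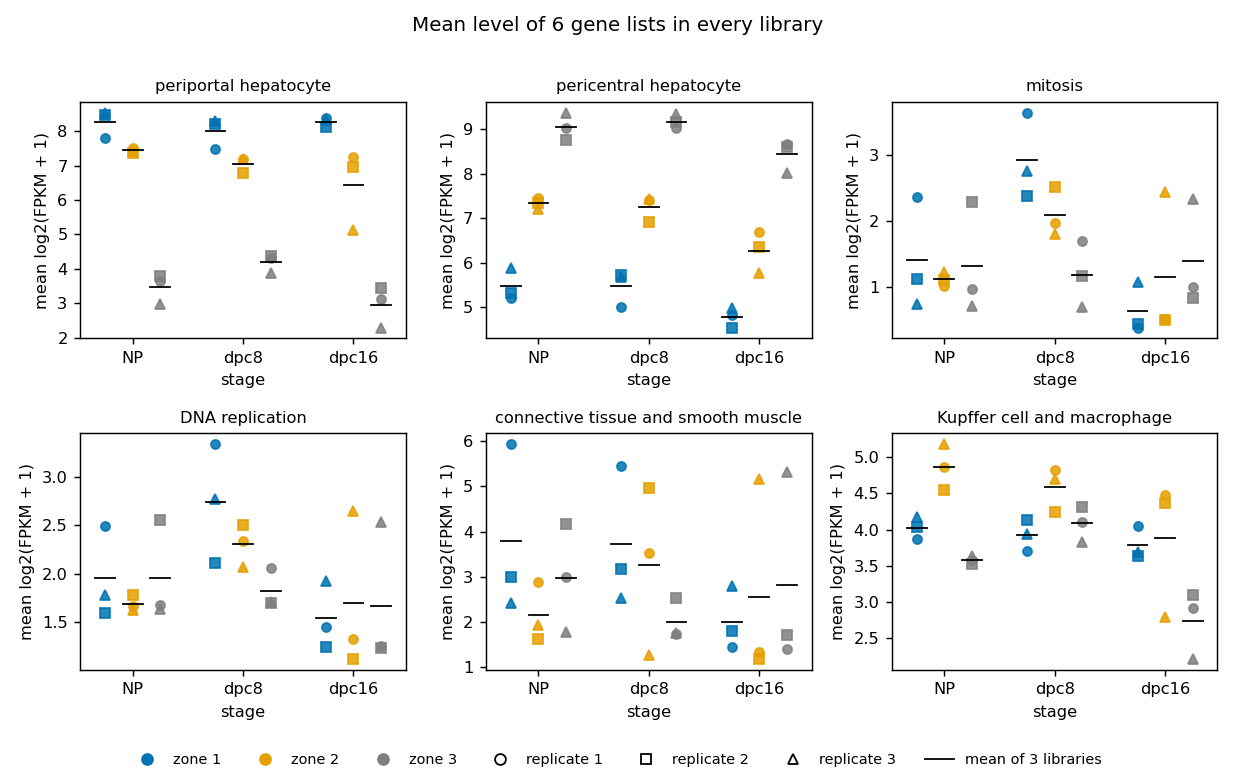
Mean log2(FPKM + 1) of the members tested of 6 gene lists (y axis) in every library of the series, grouped by stage (x axis) and coloured by zone, with replicate number as the marker shape and the mean of 3 libraries as a bar. At dpc8 the mitosis mean is 3.65 in zone 1 replicate 1 and 1.81 to 2.76 in the other 5 libraries of zones 1 and 2.

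The dissected areas hold other cell types beside hepatocytes. All 13 Kupffer cell and macrophage genes were fitted below 0 (46.8% of all genes), with a median of -0.68, and 7 lay below zone 2 without overlap, against 3.05% of all genes, but 0 passed by limma and 4 had an unadjusted p under 0.05 (3.22% of all genes). Clec4f, the lectin of Kupffer cells, was at 33.9, 35.5 and 32.1 FPKM in zone 1 and at 70.5, 43.1 and 73.8 in zone 2 (-0.83 ± 0.35). Cd5l, a secreted macrophage protein, was at 26.5, 37.1 and 33.1 FPKM in zone 1 and at 75.3, 50.3 and 62.2 in zone 2 (-0.93 ± 0.40). The list summed to 210.5 to 277.1 FPKM in zone 1 and to 305.5 to 481.1 in zone 2, and its median was -0.75 without the pair that stood apart. Sinusoidal endothelial genes had a median of -0.28 over 12 members, and of -0.50 without the pair.

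Biliary epithelial genes were fitted above 0 (53.2% of all genes) in all 6 of the 13 listed members that entered the test, with a median of 1.57 (1.82 without the pair) and 0 past the threshold by limma (3 with an unadjusted p under 0.05, beside 3.22% of all genes). Of these, 1 (Epcam) entered the test through zone 1 alone. Spp1, osteopontin, was at 43.6, 82.5 and 116 FPKM in zone 1 and at 9.75, 57.3 and 3.05 in zone 2 (2.47 ± 1.52). Krt19, a keratin of bile ducts, was at 9.22, 5.93 and 3.77 FPKM in zone 1 and at 0, 8.5 and 0.158 in zone 2, and the high zone 2 value of both genes was in replicate 2, which stood apart. The 6 members summed to 66.3 to 154.6 FPKM in zone 1 and to 14.7 to 75.1 in zone 2. The part of bile duct cells in the higher zone 1 levels of Sox9 and other genes was not tested.

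Connective tissue and smooth muscle genes varied widely between replicates of the same zone. Acta2, smooth muscle actin, was at 1219, 143 and 5.50 FPKM in zone 1 and at 71.0, 1857 and 0.157 in zone 2. The list summed to 175.7 to 3650 FPKM in zone 1 and to 94.2 to 4747 in zone 2, and its median log2 fold change was 0.50 over 19 members. Stellate cell genes had a median of -0.23 over 10 members, portal-side endothelial genes 0.61 over 6, central-side endothelial genes -0.59 over 4 and erythroid genes -0.41 over 5. Without the pair these medians were -0.25, 0.87, -0.92 and -0.27, and that of the connective tissue list was 0.47. By limma 0 genes of these lists passed. Of 16 lymphocyte and neutrophil genes 1 entered the test (Ptprc, at 2.74 to 5.79 FPKM), and of 6 genes of adipocytes, nerve sheath and mesothelium 0 did, with Adipoq, Plin1 and Sox10 listed at 0 in all 6 libraries.

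The zone difference was then set beside the same difference at the other stages, in libraries that share none with dpc8. The stages do share the estimate of each gene's spread, from all 27 libraries, and genes were filtered on dpc8 levels. Calls at different stages are therefore not independent. Zone 1 minus zone 2 gave 17 genes in NP mice (0.147%), with 3 higher (0.0259%) and 14 lower (0.121%), and 13 genes in dpc16 mice (0.112%), with 5 higher (0.0432%) and 8 lower (0.0691%). All 15 dpc8 genes had fitted values of the same sign at both stages. Over all 11575 genes the sign was shared with dpc8 by 58.5% in NP and by 45.5% in dpc16 mice, and Pearson's r of the zone differences across genes, which are not independent replicates, was 0.39 and 0.07. Without the 6 libraries whose Y-linked genes summed to at least 5 FPKM, these shares were 52.4% and 54.9% and r was 0.28 and 0.31. Of the 15 dpc8 genes, 12 also passed in NP mice (80.0% of the 15 and 70.6% of the 17) and 5 in dpc16 mice (33.3% and 38.5%), namely Cyp2c69, Cyp2e1, Gulo, Lect2 and Lhpp. At dpc16 the same-numbered libraries of zones 1 and 2 deviated together, and blocking on that number left 27 genes passing there, 8 higher and 19 lower, among them 8 of the 15. Without the same 6 libraries, among them NP zone 1 replicate 1 and dpc16 zone 2 replicate 3, the NP count was 24, with 11 of the 15, and the dpc16 count 31, with 9 of the 15. The 5 passed at all 3 stages in the fit of all libraries. Cyp2e1 was at 244 ± 26.2 FPKM in zone 1 and 3454 ± 1230.2 in zone 2 of NP mice, and at 84.0 ± 29.6 and 1147 ± 440 in dpc16 mice (SD, n = 3 each). The 3 fold changes, in the order NP, dpc8 and dpc16, were -3.77, -4.08 and -3.75 on the log2 scale. For Lect2 they were -2.52, -2.51 and -2.98, and for Cyp2c69 -1.93, -2.15 and -2.08, although the dpc16 levels of both genes were far below those at dpc8. Lect2 was at 0.930 ± 0.284 FPKM in zone 1 and 14.2 ± 2.48 in zone 2 of dpc16 mice, and Cyp2c69 at 9.06 ± 2.40 and 41.9 ± 11.8 (SD, n = 3 each).

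**Figure D5:**
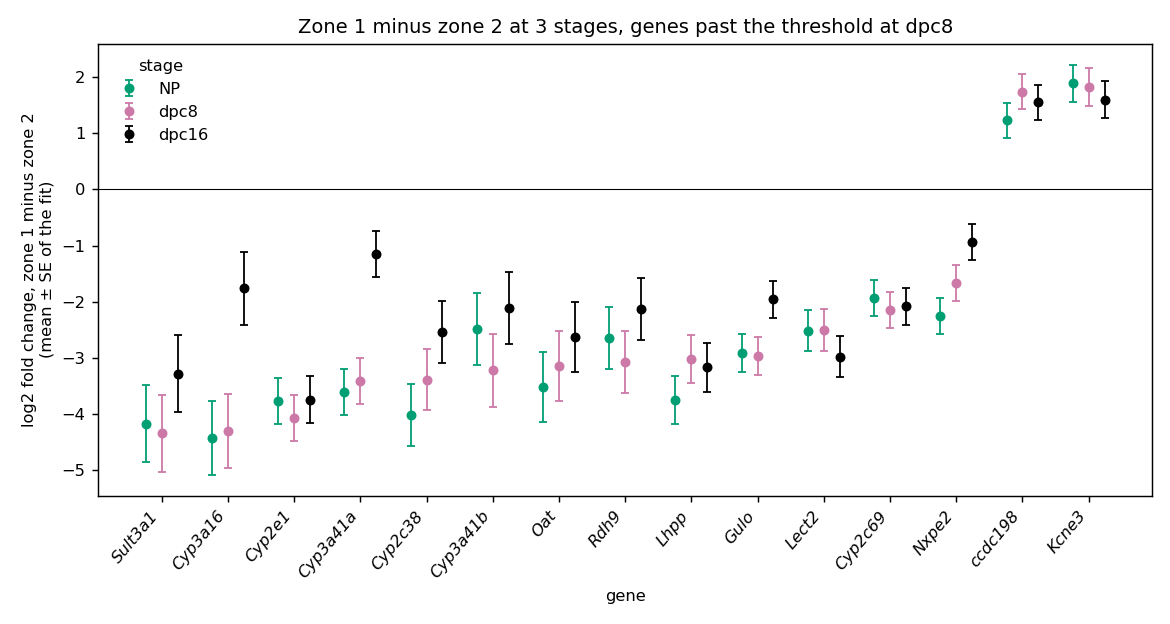
Zone 1 minus zone 2 log2 fold change (y axis, point, with the standard error of the fit as a bar) of the 15 genes past the threshold at dpc8, in NP, dpc8 and dpc16 mice. All points of a gene lie on the same side of 0, and Cyp3a41a and Cyp3a16 are nearer to 0 at dpc16 (-1.15 and -1.77) than at dpc8 (-3.42 and -4.31).

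The difference between stages was tested as an interaction. By limma 0 genes passed for dpc8 against NP mice, with 239 at an unadjusted p under 0.05, and 0 for dpc8 against dpc16 mice, with 351. Of the 15 genes, Cyp3a41a had the lowest p for a stage difference. Its zone 1 mean was 3.39 ± 2.08 FPKM at dpc8 and 18.8 ± 4.64 at dpc16, while zone 2 held 42.5 ± 9.67 and 47.2 ± 24.4 (SD, n = 3 each). The zone difference at dpc8 exceeded that at dpc16 by -2.27 ± 0.59 on the log2 scale, which by limma had an unadjusted p of 8.66e-04 and an adjusted p of 0.927. Wdr75, a ribosome biogenesis factor and the gene with the lowest p against dpc16, was at 17.0 ± 6.19 FPKM in zone 1 and 8.10 ± 2.93 in zone 2 at dpc8, and at 7.33 ± 0.943 and 20.5 ± 7.55 at dpc16 (SD, n = 3 each). The stage difference was 2.30 ± 0.46 with an adjusted p by limma of 0.62. Cep295, of the centriole, had the lowest p against NP mice, with 9.39 ± 2.47 FPKM in zone 1 and 3.12 ± 1.10 in zone 2 at dpc8 and 2.70 ± 0.738 and 5.37 ± 0.766 in NP mice (SD, n = 3 each). Its stage difference was 2.14 ± 0.47, which did not pass (adjusted p by limma 1.0). Mapre3 and Braf followed it with 1.13 and 1.25, Psph, Toe1 and Chmp1a led the other direction with -1.71, -1.70 and -1.26, and none of these passed. Against dpc16, Zc3h11a and Depdc1b had 4.23 and 1.33 and Prss36 and Abca8a -3.45 and -2.56, also without passing.

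Lists can be read beside the other stages in the same way. In the order NP, dpc8 and dpc16, the medians of the pericentral list were -1.57, -1.53 and -1.76 and those of the periportal list 0.75, 0.86 and 1.8. Mitosis genes had medians of 0.34, 0.84 and -0.54, Kupffer cell genes -0.84, -0.68 and -0.02, and fatty acid oxidation genes -0.51, -0.34 and 0.34. In dpc16 zone 2 replicate 3, 1 of the 6 libraries with Y-linked sums of at least 5 FPKM, the mean log2 level of the mitosis list was 2.44 (0.52 and 0.50 in the other libraries of that group), of the periportal list 5.14 (7.25 and 6.95), of the Kupffer cell list 2.80 (4.48 and 4.37) and of the fatty acid oxidation list 5.70 (8.56 and 8.24). In NP zone 1 replicate 1 the mitosis mean was 2.38 (1.13 and 0.73). Without these 6 libraries, the medians in the same order were -0.18, 0.73 and 0.10 for mitosis genes, 1.05, 1.12 and 1.28 for periportal genes, -1.53, -1.32 and -1.86 for pericentral genes, -0.81, -0.75 and -0.63 for Kupffer cell genes and -0.51, -0.29 and -0.39 for fatty acid oxidation genes. No test of a list between stages was run.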

How the data were processed

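Per the labels and methods, the authors depleted ribosomal RNA, trimmed reads with cutadapt, aligned them to mm10 with HISAT2 2.1.0, kept reads mapped to a single position and used Cuffdiff from Cufflinks 2.2.1 to obtain FPKM for protein-coding genes in GENCODE. The deposited FPKM values carry no counts, so depth is an estimate from steps in low values, and low FPKM rest on few reads.

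Groups and replicate numbers came from the sample titles. Log2(FPKM + 1) was fitted with limma 3.58.1 in R 4.3.3 as 9 group means over 27 libraries, with trended, robust variance moderation. Two-sided tests had Benjamini-Hochberg adjustment over 11575 genes and a threshold of 0.05. The script was tested on data simulated from the mean and spread of each gene. There, 21 of 77 genes with a true log2 change of 1 were called, 48 of 58 with 2 and 58 of 65 with 3. Of 11375 genes without a change, 10 were called. Most changes of 1 on the log2 scale would thus be missed.

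The text names up to 12 genes per direction by fold change among those past the threshold without overlap, filled up by p, up to 3 per direction and stage difference, genes the study names, and list members that passed or stood highest by FPKM. Members and lists were chosen with earlier results of these data known. Positions are from GENCODE vM21, and promoter sequences from RefSeq (GRCm38.p6). Alternatives covered the pseudocount, low-value filter, normalization, weights, replicate block and libraries left out.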

Additional observations from a re-analysis of the deposited data

How the results depend on the processing

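The 15 genes kept their direction in every alternative in which they were tested (3 of them, ccdc198, Kcne3 and Nxpe2, were not tested with a minimum FPKM of 5). The number called was 15 in the reported fit. It was 0 with only the groups compared, where the spread comes from 6 libraries (352 at an unadjusted p under 0.05 by limma), 37 with array weights, 25 when the 6 libraries of the series with Y-linked sums of at least 5 FPKM were removed and 28 with the connective tissue mean as a covariate. Leaving out 1 library in turn gave 7 to 17 genes, with 7 without zone 1 replicate 2, 8 without zone 1 replicate 3, 7 without zone 2 replicate 1, 10 without zone 2 replicate 3, 12 without zone 2 replicate 2 and 17 without zone 1 replicate 1. The cause was not tested. The pseudocount of 0.1, no filter, a minimum of 5, quantile normalization and median centring gave 12 to 18. Higher genes were 2 of 15 in the reported fit, 16 of 37 with array weights, 7 of 18 with no filter on low values, 7 of 28 with the covariate, 7 of 25 without the 6 Y-linked libraries, 1 of 15 with quantile normalization, 0 of 12 with a minimum FPKM of 5, and 0 to 5 when 1 library was left out (0 in 4 of these 6 fits). With the replicate block 25 genes were called, 2 higher and 23 lower, including all 15, and the same block called 52 genes in NP mice (9 higher, 43 lower, 14 of the 15) in place of 17. The same-numbered libraries of zones 1 and 2 at dpc8 had correlations of their deviations of -0.10, -0.31 and 0.72. These were 0.19, 0.32 and -0.07 in NP and 0.30, 0.27 and 0.36 in dpc16 mice. At dpc8 zone 1 replicate 1 correlated best with zone 2 replicate 2 (0.66), the pair that stood apart. That pair weighs on the group means from which deviations were taken. This check therefore cannot decide whether the numbers pair the dpc8 libraries. Both stage differences stayed at 0 genes by limma in all 17 alternatives, the replicate block included. Low values limit the weakly expressed genes, since 1 read on a transcript of 1 kilobase was worth 0.0372 to 0.0882 FPKM.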
